A study of Mus musculus with 186 samples.

Results

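The 10 genes described here mark resting fibroblasts, the connective tissue cells that build and maintain matrix, and were followed through bleomycin injury in mouse lung and skin. They were chosen by name, as rows of the gene count table whose identifier carries the symbol Pdgfra, Pdgfrb, Cd34, Clec3b, Inmt, Dpp4, Pi16, Npnt, Tcf21 or Gsn in the GENCODE M21 annotation, and each symbol matched 1 row, which gives 10 of 22095 gene IDs. All mice were female C57BL/6, about 12 weeks old, and received daily subcutaneous injections between the shoulder blades of bleomycin, an antibiotic that cleaves DNA and causes fibrosis, at 10 mg/kg/day, or of PBS, a salt buffer, on 5 days of each of 2 weeks. Mice killed on days 7 and 14 had no oral dosing. Those killed on days 21, 28 and 42 were given oral vehicle from day 12, after bleomycin as after PBS, and on days 21 and 28 a further bleomycin group was given SB525334 at 30 mpk BID in place of vehicle. SB525334 is an inhibitor of ALK5, a receptor kinase through which TGF-beta signals. RNA of the superior lung lobe and of skin was sequenced as total RNA without ribosomal RNA. Each tissue had 93 libraries, in 12 groups of 7 to 9.

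Fibroblasts form several populations. In lung, alveolar fibroblasts lie in the walls of the air sacs and express Tcf21, Npnt and Inmt, while adventitial fibroblasts lie in the sheaths of vessels and airways, and cells like them, marked by Pi16, Dpp4, Cd34 and Clec3b, are found in the connective tissue of skin and other organs. PDGF ligands act through the receptor tyrosine kinases Pdgfra, carried by most fibroblasts, and Pdgfrb, carried by fibroblasts and pericytes. Under TGF-beta, fibroblasts can take on an activated state with high collagen and periostin, and resting genes are often described as lower in that state. None of the genes is exclusive to fibroblasts: Cd34 is also on endothelium and blood progenitors, Dpp4 on epithelium and T cells, Npnt in lung epithelium, and Gsn in many cells.

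The promoters of Inmt, Pdgfra, Cd34 and Pi16 are shown because these genes carry the contrasts described here: Inmt and Pdgfra fell in both tissues, Cd34 rose in lung and fell in skin, and Pi16 was among the genes that fell furthest in skin. Each window runs from 250 bases before to 50 after the annotated start in RefSeq, build GRCm38.p6, 5′ to 3′ on the gene's strand. Capitals mark matches, on either strand, to the E-box CANNTG or the TATA box TATAAA. Neither AP-1 (TGANTCA) nor CAGA box (CAGACA) letters occur in these 4 windows. The Inmt window lies at chr6:55174941-55175240, minus strand.
Inmt: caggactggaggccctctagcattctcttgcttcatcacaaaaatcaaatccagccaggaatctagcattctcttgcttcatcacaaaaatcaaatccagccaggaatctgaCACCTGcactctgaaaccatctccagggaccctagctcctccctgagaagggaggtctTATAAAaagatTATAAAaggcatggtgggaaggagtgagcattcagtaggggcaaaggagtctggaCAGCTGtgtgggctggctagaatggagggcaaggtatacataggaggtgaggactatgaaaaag
The Pdgfra window lies at chr5:75152001-75152300, plus strand.
Pdgfra: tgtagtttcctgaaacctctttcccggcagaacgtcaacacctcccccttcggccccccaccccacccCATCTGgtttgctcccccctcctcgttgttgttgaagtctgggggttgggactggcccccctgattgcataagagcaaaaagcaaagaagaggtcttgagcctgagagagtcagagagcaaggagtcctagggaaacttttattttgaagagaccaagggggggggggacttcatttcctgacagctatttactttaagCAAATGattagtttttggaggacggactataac
The Cd34 window lies at chr1:194938571-194938870, plus strand.
Cd34: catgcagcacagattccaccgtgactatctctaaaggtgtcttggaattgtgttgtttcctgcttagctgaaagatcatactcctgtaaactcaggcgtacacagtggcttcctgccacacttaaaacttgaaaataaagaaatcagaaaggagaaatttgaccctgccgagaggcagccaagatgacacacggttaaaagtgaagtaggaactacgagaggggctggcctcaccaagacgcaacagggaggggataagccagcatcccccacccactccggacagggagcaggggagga
The Pi16 window lies at chr17:29318632-29318931, plus strand.
Pi16: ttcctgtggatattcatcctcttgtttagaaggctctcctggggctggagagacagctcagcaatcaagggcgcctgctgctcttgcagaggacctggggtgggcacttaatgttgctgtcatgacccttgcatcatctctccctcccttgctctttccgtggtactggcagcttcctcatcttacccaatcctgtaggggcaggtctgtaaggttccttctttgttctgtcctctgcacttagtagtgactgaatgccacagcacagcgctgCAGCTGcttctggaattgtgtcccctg
The Inmt window holds 2 E-boxes, 2 TATA boxes and 0 CpG dinucleotides at 47.7% G and C. The Pdgfra window holds 2 E-boxes and 5 CpG, the Pi16 window 1 E-box and 3 CpG, and the Cd34 window 0 E-boxes and 7 CpG. E-box letters occur in 72.3% of 32851 promoter windows of this length, TATA box letters in 13.6%, CAGA box letters in 21.0% and AP-1 letters in 7.81%. Windows were read for 8 of the 10 genes, 11 in all. None was read for Pdgfrb or Clec3b, which does not show that these genes lack an annotated start.

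Total expected counts were 4787607 to 38335420 per lung library and 14684852 to 43070659 per skin library. Several libraries stood apart from the others. In lung these were 18 of 93, of which 10, all from day 28 (6 of 8 given SB525334, 3 of 7 given vehicle after bleomycin and 1 of 7 PBS), had more than 5% of counts in ribosomal protein genes, against at most 3.43% in the rest. The other 8 carried hair, skeletal muscle or liver genes or over 1% of counts in Gm10800. Setting all 18 aside left 2 SB525334, 3 vehicle and 6 PBS lungs on day 28. In skin, 2 libraries (replicate 1 of bleomycin day 7 and replicate 3 of bleomycin with vehicle day 21) carried genes of lung alveolar epithelium. Skin libraries also varied in hair shaft genes, which summed to 3.52 to 31837 CPM (counts-per-million of the library), and in skeletal muscle genes, which summed to 7.01 to 18124 CPM. Sums over marker lists are CPM of total counts, while levels of single genes are TMM-scaled CPM. The sample descriptions give each library 1 of 2 plates, P1 or P2. Of the 65 results called for these genes between groups of a day, 61 had the same sign in both plates. The labels number the libraries of a group without saying that each came from a separate mouse, so p-values measure the spread between these samples.

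In PBS tissue the 10 genes covered a wide range. Per kilobase of annotated exon, the median over 39 PBS lungs was highest for Gsn at 883 CPM per kb and Inmt at 743, then Npnt at 86.7, Pdgfra at 59.7, Pdgfrb at 33.2, Dpp4 at 27.2, Cd34 at 27.0, Tcf21 at 18.6, Clec3b at 7.43 and Pi16 at 2.60 CPM per kb. Dpp4 and Cd34 were neighbours whose ranges overlapped almost fully, 14.1 to 33.1 and 21.2 to 34.2 CPM per kb. Other neighbours in this order also had overlapping ranges, except Inmt with Npnt and Clec3b with Pi16. In 39 PBS skins the median was again highest for Gsn at 963 CPM per kb, followed by Cd34 at 61.9, Pi16 at 26.9, Pdgfra at 21.5, Clec3b at 21.0, Dpp4 at 16.5, Pdgfrb at 15.9, Npnt at 5.29 and Inmt at 1.68 CPM per kb. In skin the ranges of Cd34, Pi16, Pdgfra, Clec3b, Dpp4 and Pdgfrb overlapped each other. The range of Npnt overlapped those of its neighbours Pdgfrb and Inmt. Tcf21, a transcription factor of lung, heart and kidney mesenchyme, was at 0 CPM in 21 of 39 PBS skins and at most 0.219 CPM in the others, and was too low to test in skin. No test was made of these levels.

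In lung, part of the resting set was lower after bleomycin and 1 gene was higher. Pdgfra, Inmt, Npnt and Gsn fell on each of the 5 days, Dpp4 fell on days 7 to 28, and Cd34 rose on each day. The call of Npnt on day 28 was lost in all 8 alternative fits (adjusted p from 0.055 to 0.281), and that of Dpp4 in 3 of them, 1 being the fit with no plate term (adjusted p = 0.0653). Counted per day, 1 gene rose and 6, 5, 5, 7 and 5 of 10 fell on days 7, 14, 21, 28 and 42. Of all genes tested, 17.8%, 25.4%, 19.4%, 18.4% and 6.77% fell on those days, 13.9%, 21.0%, 15.9%, 19.7% and 12.6% rose, and 31.7%, 46.4%, 35.3%, 38.1% and 19.4% were called in either direction. The median log2 fold change over the 10 genes was -0.30, -0.47, -0.28, -0.36 and -0.37, against -0.02, -0.02, -0.03, 0.00 and 0.02 over all genes tested. Genes said to rise, fall or be called passed an adjusted p of 0.05 in edgeR's quasi-likelihood test with Benjamini-Hochberg adjustment over all genes, and changes are log2 fold changes ± standard error (SE). In RNA of whole tissue, fewer cells of a type and less RNA per cell cannot be told apart.

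**Figure D1:**
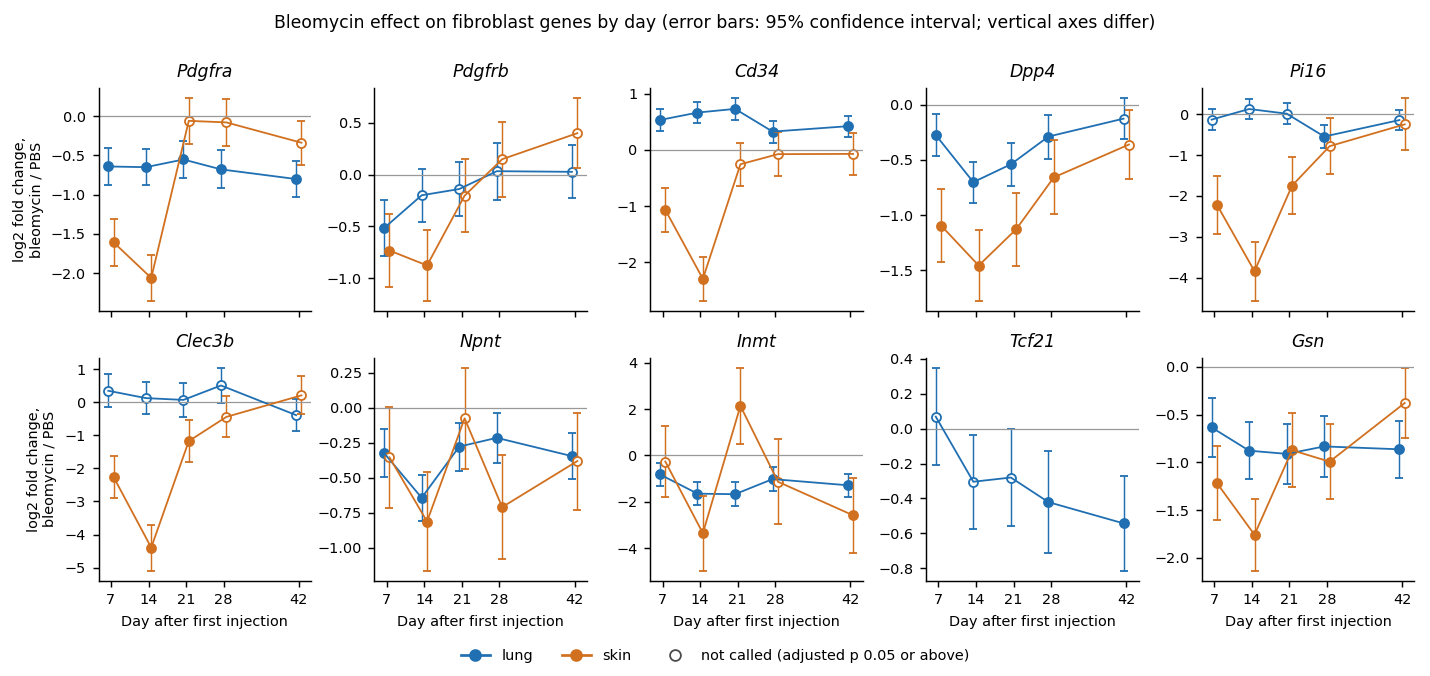
Log2 fold change of bleomycin over PBS with its 95% interval (y axis) for each of the 10 genes on days 7, 14, 21, 28 and 42 (x axis), in lung (blue) and skin (orange); filled points passed an adjusted p of 0.05 and open points did not. In lung, Pdgfra, Inmt, Npnt and Gsn stayed below 0 and Cd34 above 0; in skin, Clec3b, Pi16, Cd34 and Pdgfra were lowest on day 14, at -4.39, -3.85, -2.30 and -2.06. Tcf21 was not tested in skin.

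The receptor Pdgfra (chr5:75152292-75198215) was at 310.0, 368 and 466 CPM, as the lowest, median and highest library, in 8 bleomycin lungs on day 14 and at 543, 573 and 635 CPM in 8 PBS lungs. Every bleomycin lung lay below every PBS lung, and the change was -0.65 ± 0.11 (adjusted p = 1.8e-06). The same separation held on days 7, 21 and 42. On day 42 levels were 202, 381 and 455 CPM after bleomycin and 591, 609 and 646 CPM after PBS, a change of -0.80 ± 0.11 (adjusted p = 6.45e-08). On day 28 the groups overlapped, at 202, 275 and 525 and 303, 529 and 607 CPM.

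Its relative Pdgfrb fell on day 7, when bleomycin lungs were at 106, 116 and 156 CPM and PBS lungs at 154, 170.5 and 219.6 CPM, a change of -0.52 ± 0.13 (adjusted p = 0.00176). On that day 6 of 7 bleomycin lungs lay below the lowest PBS lung. From day 14 on its change ran from -0.20 to 0.03 and was not called. Of 12 pericyte markers 3 fell and 0 rose on day 7, and whether they have a part in the fall of Pdgfrb was not tested.

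The surface glycoprotein Cd34 (chr1:194938819-194961279), a sialomucin of stromal progenitors and endothelium, moved the other way. On day 21 it was at 253, 316 and 329.8 CPM in 7 bleomycin lungs and 163, 186 and 208 CPM in 8 PBS lungs, a change of 0.73 ± 0.10 (adjusted p = 2.77e-09). Every bleomycin lung was above every PBS lung on days 7, 14 and 21, as was the case for 5.69%, 7.75% and 9.86% of all genes tested. On day 42 the rise was 0.42 ± 0.09, with 7 of 8 bleomycin lungs above the highest PBS lung and 1, replicate 1, below the lowest. That library carried liver genes at a sum of 20668 CPM. Of 14 endothelial markers 13 fell and 0 rose on day 14, with a summed level of 3087 to 3887 CPM after bleomycin and 4069.6 to 5047 CPM after PBS, so the endothelial list and Cd34 went in opposite directions.

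Dpp4, a cell surface peptidase of universal fibroblasts, was at 89.0, 111 and 135 CPM on day 14 of bleomycin and 153, 179 and 209 CPM in PBS, without overlap, a change of -0.70 ± 0.09 (adjusted p = 2.12e-09). Its difference was -0.54 ± 0.10 on day 21, again without overlap, and -0.13 ± 0.09 on day 42, which was not called. Pi16, a peptidase inhibitor of the same cells, was low in lung at 15.1, 15.9 and 18.7 CPM after bleomycin and 10.5, 14.6 and 20.3 CPM after PBS on day 14. It was called lower on day 28 alone (-0.55 ± 0.14, adjusted p = 0.00143), with overlapping groups.

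Clec3b, which encodes the secreted plasminogen-binding protein tetranectin, was called on no day in lung. Its largest level was in day 28 libraries, up to 41.3 CPM after bleomycin and 41.5 CPM after PBS, where ribosomal protein genes were also high, against 4.61, 6.21 and 7.00 and 6.39, 7.44 and 9.15 CPM on day 42. Without the libraries that stood apart, Clec3b was called higher on day 7 (0.42, adjusted p = 0.0061) and lower on day 42 (-0.34, adjusted p = 0.0197). Npnt encodes nephronectin, a basement membrane protein bound by integrin alpha 8. It was at 224, 240.1 and 292 CPM on day 14 after bleomycin and 288, 401 and 446 CPM after PBS, a change of -0.64 ± 0.08 (adjusted p = 8.07e-10), with 7 of 8 bleomycin lungs below the lowest PBS lung. On day 42 the change was -0.35 ± 0.08 and the groups did not overlap.

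Inmt, an amine N-methyltransferase and one of the most abundant alveolar fibroblast transcripts, showed the deepest fall of the 10 genes in lung. On day 14 it was at 257, 457 and 630.0 CPM in bleomycin lungs and 1147, 1364 and 1551 CPM in PBS lungs, a change of -1.65 ± 0.25 (adjusted p = 4.89e-08). The groups were also apart on day 21 (-1.67 ± 0.26) and on day 42 (-1.28 ± 0.24, adjusted p = 3.27e-05). Its smallest change was on day 7, at -0.82 ± 0.25.

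Tcf21 encodes the basic helix-loop-helix factor that marks lung lipofibroblasts and alveolar fibroblasts. It was at 36.9, 43.9 and 53.9 CPM on day 7 after bleomycin and 35.5, 44.6 and 46.8 CPM after PBS, a difference of 0.07 ± 0.14 that was not called. On day 42 it was at 23.9, 30.2 and 38.5 and 38.8, 45.3 and 53.1 CPM, without overlap, a change of -0.54 ± 0.14 (adjusted p = 0.00178). The values on days 14 and 21, -0.30 and -0.28, were not called, and that on day 14 was called without the libraries that stood apart (-0.40, adjusted p = 0.00704).

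Gsn encodes gelsolin, which severs and caps actin filaments. On day 14 it was at 1084, 1423 and 1857 CPM after bleomycin and 2235, 2762 and 3078 CPM after PBS, and on day 42 at 966, 1649 and 2079.9 and 2765, 2981 and 3045 CPM. Bleomycin and PBS lungs did not overlap on days 7, 14, 21 and 42. The changes from day 7 to day 42 were -0.63, -0.88, -0.91, -0.83 and -0.86 (adjusted p from 0.000911 on day 7 to 1.18e-06 on day 14). In all, 2, 4, 4, 0 and 5 of the 10 genes had every bleomycin lung below every PBS lung on the 5 days, as had 5.26%, 8.01%, 9.34%, 0.0895% and 2.35% of all genes tested.

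**Figure D2:**
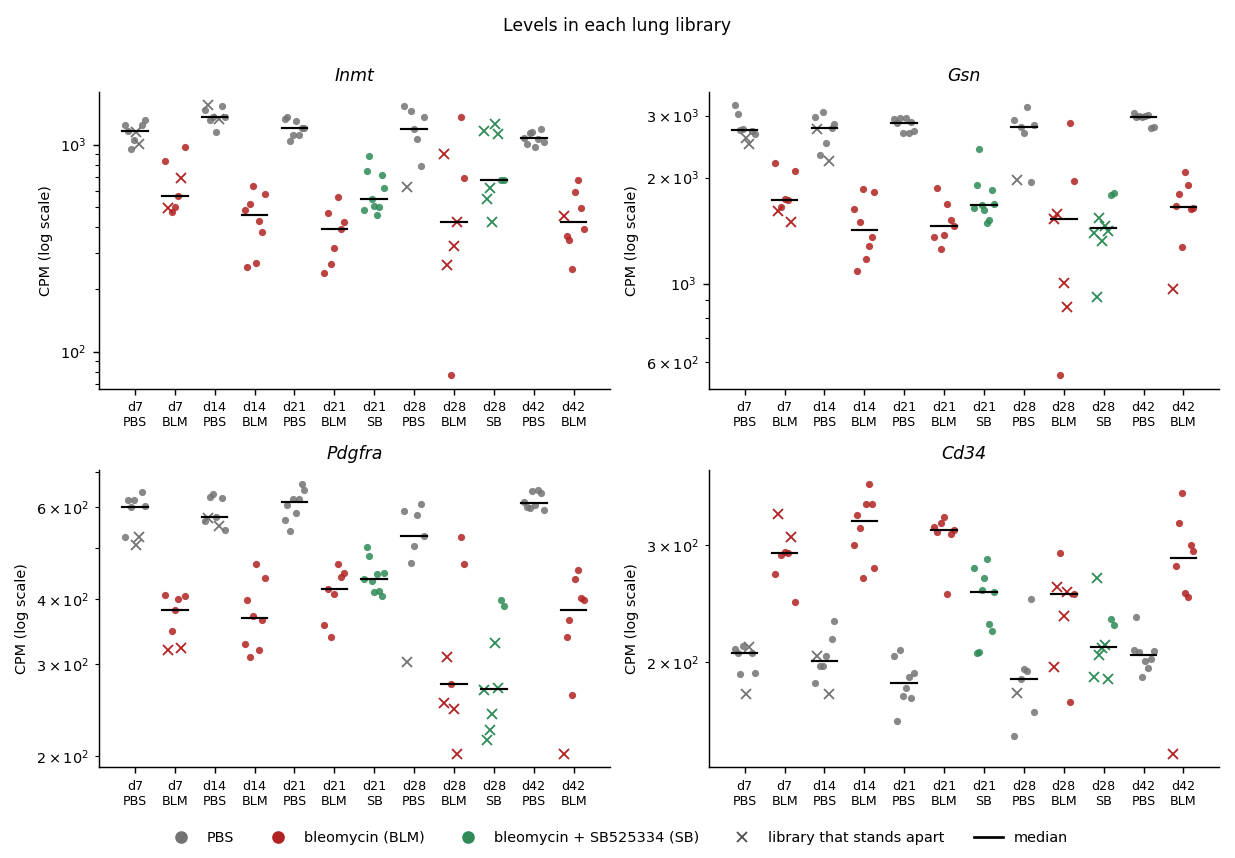
Level of Inmt, Gsn, Pdgfra and Cd34 in each lung library (CPM, log axis) by group and day (x axis); bars are medians and crosses are libraries that stood apart. On day 14 Inmt, Gsn and Pdgfra were lower and Cd34 higher in every bleomycin lung than in every PBS lung, while on day 28 the groups overlapped.

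Lung values of day 28 rest on few ordinary libraries. In a fit of the bleomycin and PBS lungs of that day alone, edgeR called none of the 10 genes and 0.814% of all genes, and 5 of the 10 had an unadjusted p below 0.05. The changes in that fit were -1.12 for Inmt, -0.90 for Gsn and -0.70 for Pdgfra. Without the libraries that stood apart, 1 of the 10 rose and 4 fell (Pdgfra -0.43, Pi16 -0.56, Tcf21 -0.76 and Gsn -0.58). Of all genes 22.3% were called in this edgeR fit. Inmt (-0.86, adjusted p = 0.0558), Dpp4 and Npnt were no longer called in it. The macrophage list rose beside these changes, with 8, 11, 11, 10 and 10 of 12 genes higher on days 7 to 42. Its sum was 7927 to 11652 CPM after bleomycin and 4829 to 6088 CPM after PBS on day 14, and its part in the falls was not tested.

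In skin, the tissue that was injected, all 9 genes tested fell on day 14. The counts were 7, 9, 4, 3 and 1 of 9 lower on days 7, 14, 21, 28 and 42, and 1 higher on day 21. Of all genes tested 20.7%, 28.1%, 21.0%, 11.6% and 4.96% fell, 25.5%, 31.5%, 20.2%, 12.7% and 5.28% rose, and 46.2%, 59.6%, 41.2%, 24.3% and 10.2% were called in either direction. The median change over the 9 genes was -1.10, -2.06, -0.26, -0.66 and -0.34. For 8 of 9 genes on day 14 and 6 of 9 on day 7 every bleomycin skin lay below every PBS skin, as was the case for 11.8% and 5.55% of all genes tested.

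Pdgfra was at 35.0, 54.9 and 60.1 CPM on day 14 of bleomycin and 123, 226 and 257 CPM in PBS, a change of -2.06 ± 0.15 (adjusted p = 1.84e-20). Pdgfrb was at 34.1, 47.1 and 53.8 and 63.9, 88.7 and 103 CPM, a change of -0.88 ± 0.17. Neither group pair overlapped on day 7 or day 14. On day 21 both receptors had groups that overlapped, with differences of -0.06 for Pdgfra and -0.20 for Pdgfrb, neither called.

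Cd34, which rose in lung, fell in skin. On day 14 it was at 72.7, 114 and 159 CPM after bleomycin and 455, 545 and 634 CPM after PBS, a change of -2.30 ± 0.20 (adjusted p = 7.67e-17), and on day 7 the change was -1.07 ± 0.20. From day 21 on its difference lay between -0.26 and -0.07 and was not called. Of 14 endothelial markers 5 fell and 0 rose in skin on day 14.

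Pi16 and Dpp4 are the other universal fibroblast surface genes. Pi16 was at 4.89, 13.9 and 20.9 CPM on day 14 of bleomycin and 158, 187 and 259 CPM in PBS, a change of -3.85 ± 0.36 (adjusted p = 5.79e-15). It was still called on day 21 (-1.75 ± 0.35) but not on day 28 (-0.78 ± 0.35). Dpp4 was at 32.9, 41.3 and 50.8 and 82.6, 108 and 163 CPM on day 14, a change of -1.46 ± 0.16, and remained lower on day 21 without overlap (-1.13 ± 0.17) and on day 28 with overlap (-0.66 ± 0.17).

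Clec3b fell furthest of the 9 genes. On day 14 it was at 0.278, 0.961 and 2.45 CPM in 8 bleomycin skins and 17.2, 24.8 and 30.8 CPM in 8 PBS skins, a change of -4.39 ± 0.35 (adjusted p = 3.79e-18). On day 7 the change was -2.27 ± 0.32, and on day 21, at 1.85, 6.38 and 17.2 and 10.8, 14.6 and 23.2 CPM, it was -1.18 ± 0.31 with overlapping groups. By day 42 bleomycin skins were at 14.1, 16.0 and 61.7 CPM and PBS skins at 9.07, 18.2 and 38.5 CPM, a difference of 0.21 ± 0.29 that was not called.

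Gsn fell on days 7, 14, 21 and 28. It was at 703, 1024 and 1346 CPM on day 14 of bleomycin against 2344, 3395 and 4407 CPM in PBS (-1.76 ± 0.19, adjusted p = 8.63e-13). On day 28 it was at 1068, 1369.5 and 1836 against 1335, 3041 and 3575 CPM (-0.99 ± 0.20), and on day 42 its difference of -0.38 ± 0.18 was not called. Npnt, low in skin, was at 11.2, 14.4 and 21.1 CPM after bleomycin and 21.5, 24.8 and 36.2 CPM after PBS on day 14 without overlap, a change of -0.81 ± 0.18, and fell again on day 28 (-0.71 ± 0.19).

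Inmt was close to the limit of detection in skin. On day 14 it was at 0.141, 0.739 and 1.00 CPM after bleomycin and 0.424, 5.77 and 16.0 CPM after PBS (-3.35 ± 0.81, adjusted p = 0.000266), and on day 42 at 0.167, 0.507 and 1.00 and 1.65, 2.43 and 5.31 CPM, without overlap (-2.58 ± 0.82, adjusted p = 0.0304). Its rise on day 21 (2.14 ± 0.82, adjusted p = 0.0299) rests on bleomycin replicate 3 at 43.1 CPM, the library with alveolar epithelial genes at a sum of 1104 CPM. Without the libraries that stood apart Inmt was lower on day 21, at -1.90 (adjusted p = 0.0312).

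**Figure D3:**
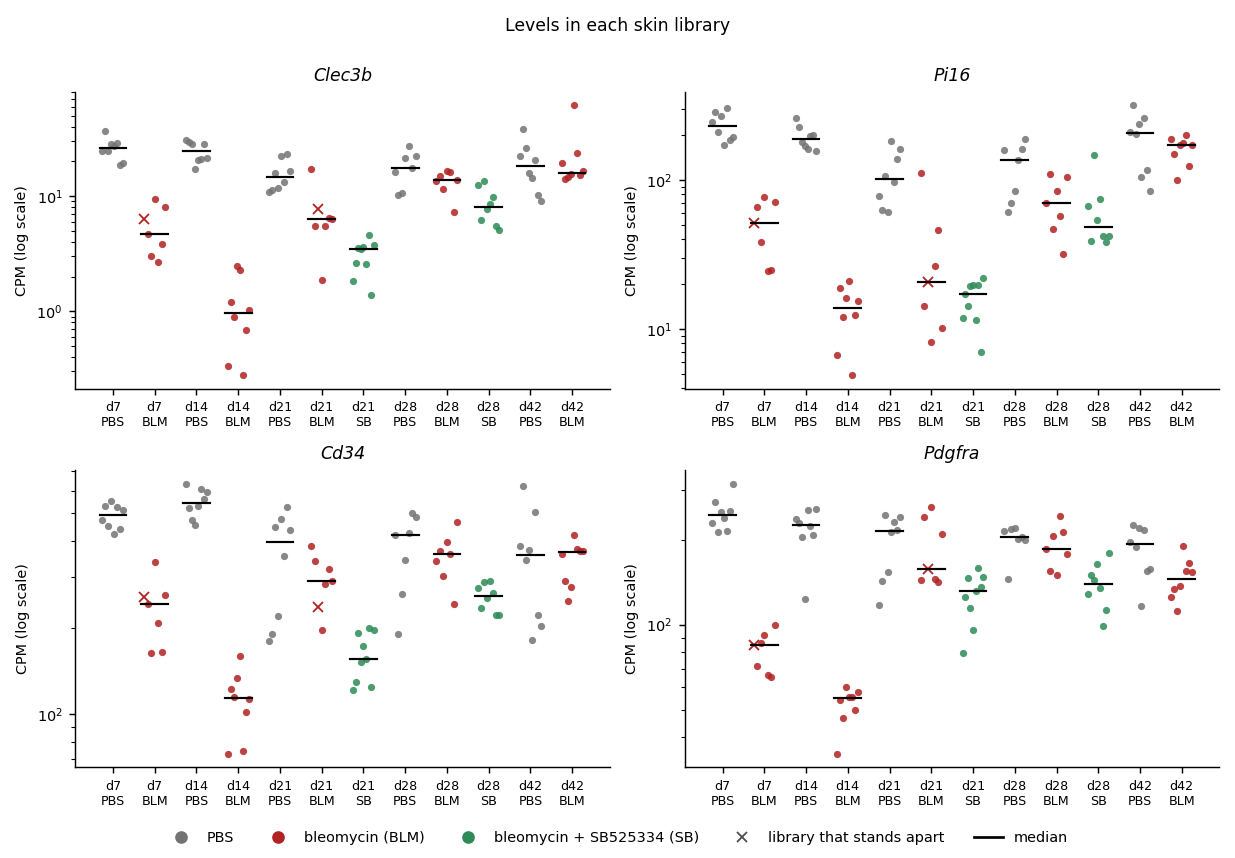
Level of Clec3b, Pi16, Cd34 and Pdgfra in each skin library (CPM, log axis) by group and day (x axis); bars are medians and crosses are libraries that stood apart. The 8 bleomycin skins of day 14 lie below the 8 PBS skins for all 4 genes, and on day 42 the groups overlap.

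Other transcripts moved with these groups. Ribosomal protein genes rose in skin on days 7 and 14, 15 and 16 of 16 with median changes of 0.43 and 0.44, and adipocyte genes fell, 5 and 10 of 10. Skeletal muscle genes summed to 1532 to 3433 CPM after bleomycin and 2394 to 7033 CPM after PBS on day 14, and to 3009 to 11371 and 7.96 to 2588 CPM on day 21. With hair and muscle scores as terms in the fit, an alternative chosen after the data were seen, 9 of 9 genes still fell on day 14, from -0.74 for Npnt to -4.26 for Clec3b. On day 21 the same fit also called Cd34 (-0.49) and Pdgfrb (-0.47) lower and no longer called Inmt. On day 42 it called Npnt lower (-0.47) and Pdgfrb higher (0.40). The part of the ribosomal protein and adipocyte changes was not tested.

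In skin the bleomycin effect on day 42 was higher than that on day 14 for 7 of 9 genes (23.0% of all genes tested were higher and 50.9% called in either direction). The differences were 4.60 ± 0.45 for Clec3b, 3.60 ± 0.47 for Pi16, 2.22 ± 0.27 for Cd34, 1.72 ± 0.20 for Pdgfra, 1.38 ± 0.26 for Gsn, 1.28 ± 0.24 for Pdgfrb and 1.10 ± 0.22 for Dpp4 (adjusted p at most 3.75e-05). For Npnt and Inmt they were 0.43 ± 0.25 and 0.77 ± 1.13, not called. In lung Dpp4 was the only one of 10 genes called, at 0.57 ± 0.13 (adjusted p = 0.00126), where 15.3% of all genes were. Without the libraries that stood apart 3 of 10 were called in lung, and 28.4% of all genes. Over all 5 days the bleomycin effect differed for 8 of 9 genes in skin, all but Npnt (62.0% of all genes), and for Pi16, Dpp4 and Npnt in lung (26.5%).

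The difference between tissues was tested in a fit of all 186 libraries. The labels do not say whether a lung and a skin library with the same number came from 1 mouse, so libraries were treated as independent, and the p-values hold only as far as that is so. Tcf21 was too low in skin and has no test of this difference, which leaves 9 genes. On day 14 the effect in skin was lower than in lung for 7 of 9 genes (16.7% of all genes were lower and 32.3% called). The differences, skin minus lung, were -4.56 ± 0.42 for Clec3b, -4.02 ± 0.37 for Pi16, -3.01 ± 0.22 for Cd34, -1.46 ± 0.18 for Pdgfra, -0.92 ± 0.24 for Gsn, -0.80 ± 0.18 for Dpp4 and -0.72 ± 0.22 for Pdgfrb. On day 7 the effect was lower in skin for Clec3b (-2.66), Pi16 (-2.13), Cd34 (-1.65), Pdgfra (-1.01) and Dpp4 (-0.86), 5 of 9 genes against 7.98% of all genes.

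After day 14 fewer of the 9 genes differed between the tissues. On day 21 the skin effect was lower for Pi16 (-1.83), Clec3b (-1.30), Cd34 (-1.05) and Dpp4 (-0.64), 4 genes against 16.6% of all genes. It was higher for Inmt (3.79), where 30.1% of all genes were called in either direction. Without the libraries that stood apart, among them the skin library with alveolar genes, the value for Inmt was -0.19 and was not called. On day 28 Pdgfra was higher in skin (0.57) and Npnt lower (-0.53), against 26.0% of all genes, and neither was called without those libraries. On day 42 none of the 9 genes was called in edgeR against 12.1% of all genes, and 3 (Pdgfra, Cd34 and Gsn) had an unadjusted p below 0.05. The interval of the difference for Pdgfra was 0.12 to 0.83.

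SB525334 was compared with vehicle in bleomycin-treated mice to ask what ALK5 inhibition changed. In lung it changed 1 of 10 genes on each day. On day 21 Pi16 was at 9.75, 10.2 and 14.0 CPM in 9 SB525334 lungs and 13.1, 15.0 and 25.2 CPM in 7 vehicle lungs, a difference of -0.58 ± 0.13 (adjusted p = 0.00981), with 7 of 9 SB525334 lungs below the lowest vehicle lung. Of all genes 0.403% were called in that comparison. Inmt was at 457, 545 and 883 CPM against 239.9, 392 and 559.5 CPM, a difference of 0.67 ± 0.25 (adjusted p = 0.334). Cd34 was at 206, 255 and 286 against 253, 316 and 329.8 CPM, a difference of -0.34 ± 0.09 (adjusted p = 0.08). Neither passed the test over all libraries, and Cd34 did without those that stood apart, none of which belongs to these groups (-0.34, adjusted p = 0.00859). A fit of the 2 groups alone called 4 of 10 genes, Inmt, Cd34, Pi16 and Tcf21, and 5.92% of all genes. For Pdgfra the difference was 0.10 ± 0.11 with an interval of -0.13 to 0.32.

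On day 28 Tcf21 was at 41.4, 50.4 and 74.0 CPM in 8 SB525334 lungs and 9.36, 33.7 and 53.7 CPM in 7 vehicle lungs, a difference of 0.77 ± 0.14 (adjusted p = 0.000229). Of all genes 2.64% were called higher, 5.73% lower and 8.37% in all. Groups overlapped, and 6 of the 8 SB525334 and 4 of the 7 vehicle lungs stood apart. Without them Tcf21 was higher by 0.89 (adjusted p = 0.0357), with 2 lungs against 3. In a fit of the 2 groups alone it was 0.76 (adjusted p = 0.441). Ribosomal protein genes took over 5% of counts in 6 of 8 SB525334 and 3 of 7 vehicle lungs, and their part in the difference was not tested.

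In skin SB525334 lowered 4 of 9 genes on day 21, against 6.02% of all genes lowered, 5.81% raised and 11.8% called. Cd34 was at 121, 155 and 199 CPM in 9 SB525334 skins and 196, 289.9 and 385 CPM in 7 vehicle skins, a change of -0.89 ± 0.19 (adjusted p = 0.000637), with 8 of 9 below the lowest vehicle skin. Pdgfra was at 79.2, 131 and 159 against 141, 158 and 261 CPM (-0.57 ± 0.14, adjusted p = 0.00341), with 6 of 9 below. Clec3b was at 1.38, 3.46 and 4.63 against 1.85, 6.38 and 17.2 CPM (-1.19 ± 0.31, adjusted p = 0.00599). Groups overlapped for each of these genes. Pi16 was at 6.96, 17.3 and 22.1 against 8.12, 20.8 and 111 CPM (-1.06 ± 0.33, adjusted p = 0.0238), and was not called in the deposited log2 table (-0.57, adjusted p = 0.302) or with the 2 groups alone (-0.96, adjusted p = 0.184).

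On day 28 Pdgfra was called lower in skin. It was at 98.9, 139 and 179 CPM in 8 SB525334 skins and 149.7, 184 and 243 CPM in 7 vehicle skins, a change of -0.45 ± 0.14 (adjusted p = 0.0179), the only call among 9 genes where 11.6% of all genes fell and 23.9% were called. Cd34 differed by -0.46 ± 0.19 and Clec3b by -0.65 ± 0.30, neither called. Hair shaft genes summed to 58.3 to 3875 CPM with SB525334 and 2811 to 8544 CPM with vehicle. With hair and muscle scores as terms, Cd34 (-0.71), Clec3b (-0.83) and Dpp4 (-0.49) were called lower too, and a fit of the 2 groups alone called these 3 and Pdgfra lower and Gsn higher (0.31). The differences of Cd34, Clec3b, Pi16 and Pdgfra in skin were below 0 on both days. This sign was not particular to them. With the replicate number as a block, Dpp4 (-0.38 and -0.35), Npnt (-0.30 and -0.14) and Pdgfrb (-0.05 and -0.11) were below 0 on both days too. Gsn and Inmt were below 0 on day 21 and above 0 on day 28. In that fit Pi16 on day 28 was -0.13 and not called.

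**Figure D4:**
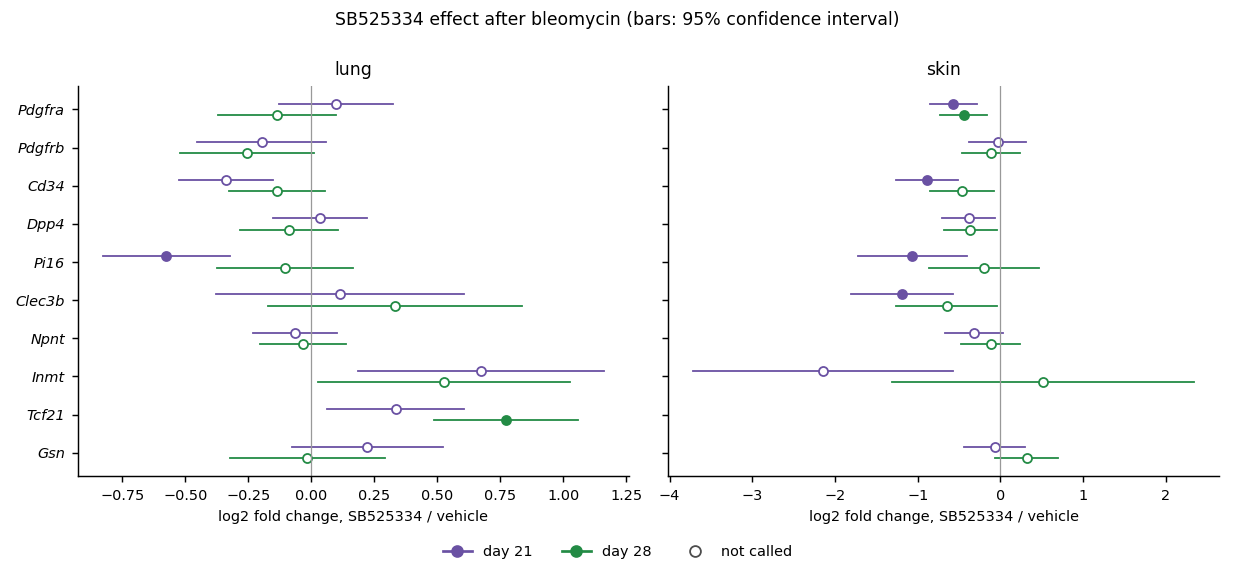
Log2 difference of SB525334 minus vehicle after bleomycin with its 95% interval (x axis) for each gene (y axis), in lung and skin on days 21 and 28; filled points passed an adjusted p of 0.05 and open points did not. In lung Pi16 on day 21 (-0.58) and Tcf21 on day 28 (0.77) are filled; in skin Cd34, Clec3b, Pi16 and Pdgfra on day 21 and Pdgfra on day 28 are filled, all below 0.

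The inhibitor effect differed between tissues on day 21 for Pdgfra, at -0.64 ± 0.18 skin minus lung (adjusted p = 0.0371), and for Inmt (-2.78), 2 of 9 genes against 1.91% of all genes. Pdgfra was no longer called with no filter or with no plate term. Without the libraries that stood apart Inmt became 1.24, not called. On day 28 none of the 9 genes was called in edgeR, 1 (Clec3b) had an unadjusted p below 0.05, and 13.7% of all genes were called.

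Pdgfc, which activates Pdgfra homodimers and mixed receptor dimers, rose in all 10 comparisons of bleomycin with PBS. In lung it rose by 0.70 ± 0.24, 1.71 ± 0.23, 1.49 ± 0.24, 1.16 ± 0.25 and 1.11 ± 0.23 on days 7 to 42, while its receptor Pdgfra fell. In skin it rose by 0.46 ± 0.18, 0.57 ± 0.18, 1.56 ± 0.18, 1.71 ± 0.19 and 0.83 ± 0.18. Pdgfd, a ligand of Pdgfrb, fell in skin on days 7 and 14 (-0.61 ± 0.18 and -0.68 ± 0.17) and rose on days 21, 28 and 42 (0.51 ± 0.18, 1.55 ± 0.19 and 0.70 ± 0.17). In lung Pdgfd fell on days 14 and 28 (-0.56 ± 0.11 and -0.38 ± 0.12). SB525334 lowered Pdgfd in skin, with differences of -0.59 ± 0.17 on day 21 and -1.44 ± 0.18 on day 28. Pdgfa and Pdgfb were called in lung on no day, and in skin Pdgfa rose on day 14 (0.25 ± 0.10) and Pdgfb on days 21 and 42 (0.38 ± 0.13 and 0.41 ± 0.13). Under SB525334 Pdgfa, Pdgfb and Pdgfc were not called in either tissue, nor was Pdgfd in lung. The bleomycin effect was higher on day 42 than on day 14 for Pdgfd in lung (0.69 ± 0.15) and skin (1.38 ± 0.24) and for Pdgfb in skin (0.57 ± 0.18), and lower for Pdgfa in skin (-0.41 ± 0.14). Skin minus lung, it was lower for Pdgfc on day 14 (-1.18 ± 0.29) and higher for Pdgfd on days 28 and 42 (1.90 ± 0.22 and 0.58 ± 0.20), and the SB525334 effect was lower for Pdgfd on day 28 (-1.45 ± 0.21). Ligand values are given from the fit of all libraries only. Of the day 28 lungs in it, 6 of 8 given SB525334, 4 of 7 given vehicle after bleomycin and 1 of 7 PBS stood apart. Among all 12 ligand and signalling genes of the list beside the receptors, 3 rose and 5 fell in lung and 5 rose and 2 fell in skin on day 14. Of all genes tested on that day, 21.0% rose and 25.4% fell in lung, and 31.5% rose and 28.1% fell in skin.

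Larger marker lists place the 10 genes among their kind. The lists are given here without the members they share with the 10 genes. Of 16 other universal and adventitial fibroblast genes 9 rose and 3 fell in lung on day 14 (median 0.41), and 2 rose and 13 fell in skin (median -1.26). Il33, an alarmin, rose in lung by 1.04 ± 0.12, while Pcolce2, an enhancer of procollagen processing, fell in lung (-1.27 ± 0.14) and in skin (-2.86 ± 0.29). In skin Dpt, a dermal matrix protein, fell (-2.07 ± 0.18), as did Scara5, a ferritin receptor (-3.34 ± 0.36). On day 42 in skin 4 of the 16 rose and 0 fell, led by Mfap5 (1.51 ± 0.23) and Col14a1 (1.59 ± 0.25), which encode fibril-associated matrix proteins.

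Alveolar fibroblast genes were mostly lower in lung. Of 17 others 5, 11, 10, 11 and 12 fell on days 7, 14, 21, 28 and 42, and 2, 1, 1, 0 and 1 rose (medians -0.18, -0.50, -0.36, -0.40 and -0.46). Of all genes tested 17.8%, 25.4%, 19.4%, 18.4% and 6.77% fell on those days. On day 28 11 fell without the libraries that stood apart. With the 2 groups alone edgeR called 1 lower (median -0.37, 9 with an unadjusted p below 0.05). Slc7a10, an amino acid transporter, and Scube2, which encodes a secreted protein, fell on day 14 (-1.83 ± 0.20 and -1.27 ± 0.14). On day 42 Scube2 (-1.46 ± 0.14), the Wnt ligand Wnt2 (-0.81 ± 0.11) and the growth factor Fgf10 (-0.50 ± 0.10) were lower. With SB525334 on day 28, 4 of the 17 were higher and 1 lower than with vehicle, among them Scube2 (0.50 ± 0.15) and Wnt2 (0.37 ± 0.11), against 2.64% and 5.73% of all genes. In these groups 6 of 8 and 4 of 7 lungs stood apart, and edgeR called 0 of the 17 without them and 0 with the 2 groups alone (6 and 5 had an unadjusted p below 0.05).

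Some activated fibroblast genes rose in lung on every day, 4, 11, 11, 5 and 4 of 15, with 0 lower. Of all genes tested 13.9%, 21.0%, 15.9%, 19.7% and 12.6% rose on those days. On day 28 the count was 5 without the libraries that stood apart. It was 0 in edgeR with the 2 groups alone (median 0.50, 4 with an unadjusted p below 0.05). Tnc, a matrix glycoprotein of injury, rose by 3.03 ± 0.36 and fibronectin Fn1 by 1.99 ± 0.29 on day 14. In skin 2 and 3 rose and 5 and 6 fell on days 7 and 14, and 11, 14 and 9 rose on days 21, 28 and 42, with 1, 0 and 1 lower. Of all genes in skin 25.5% and 31.5% rose and 20.7% and 28.1% fell on days 7 and 14. On days 21, 28 and 42 20.2%, 12.7% and 5.28% rose. On day 28 periostin (Postn) was higher by 2.83 ± 0.26 and Cthrc1, a marker of fibrotic fibroblasts, by 4.67 ± 0.51, and the summed level of the list was 42108 to 57435 CPM after bleomycin and 8326 to 23820.1 CPM after PBS. SB525334 lowered 5 of 15 in skin on day 21 and 11 on day 28, and 1 and 8 in lung. The 8 in lung on day 28 became 0 in edgeR without the libraries that stood apart (median -0.70, 4 with an unadjusted p below 0.05) and 0 with the 2 groups alone (median -0.66, 9 with an unadjusted p below 0.05), against a median of -0.64 over all libraries. Postn in skin changed by -1.84 ± 0.24 under the inhibitor on day 28. Of 13 other pan-fibroblast genes 10 fell and 0 rose in skin on day 14, and 10 rose and 0 fell on day 28.

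**Figure D5:**
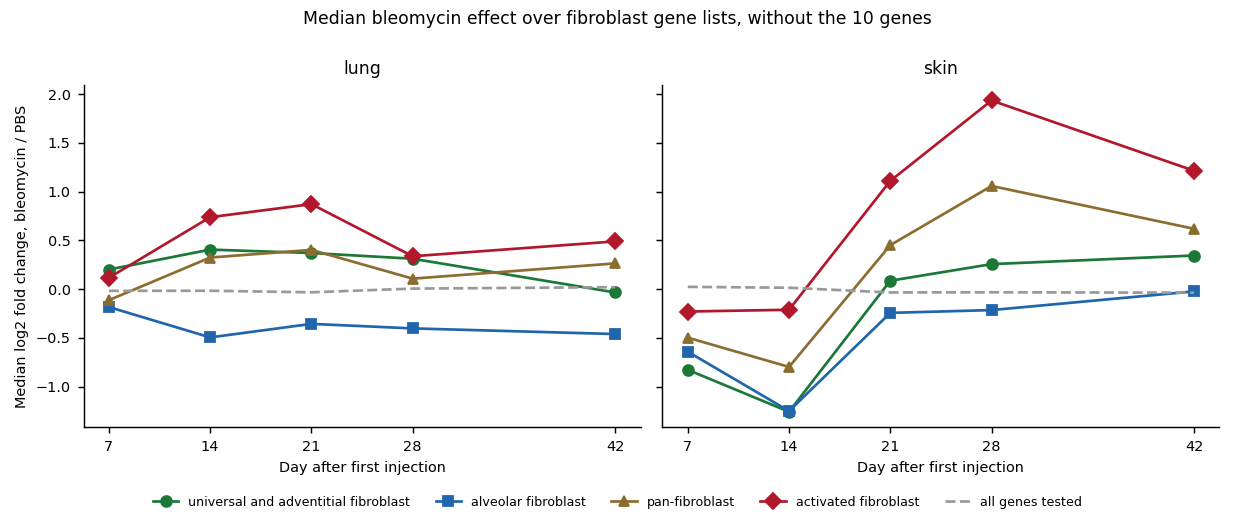
Median log2 fold change of bleomycin over PBS (y axis) by day (x axis) over the genes of 4 fibroblast lists in lung and skin, without the 10 genes; dashed lines are the median of all genes tested. In skin the median of the universal and adventitial list was -1.26 on day 14 and 0.35 on day 42 and that of the activated list 1.94 on day 28; in lung the alveolar list stayed below 0 on all 5 days.

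The genes most like each member across the 93 libraries of a tissue, which share treatment, day, plate and tissue makeup, are given as Pearson's r of log2 CPM and as a description. In lung Gsn was most like Ogn (r = 0.94) and Pgm5 (0.93), and Inmt most like Ogn (r = 0.90), Bex2 (0.90) and Igfbp6 (0.90). Pdgfra was most like Limch1 (r = 0.92), Specc1l (0.90) and Stard13 (0.90) in lung. Cd34 in lung was most like Brinp1 (r = 0.88), Tnc (0.88) and Mmp2 (0.87), of which tenascin C and the matrix metalloproteinase Mmp2 belong to matrix remodelling. Clec3b in lung was most like Krtcap2 (r = 0.94), Nenf (0.94) and Dpm3 (0.93), and its highest values were in the day 28 libraries with many ribosomal protein counts. Lung Dpp4 was most like Itga8 (r = 0.91), Myo6 (0.91) and Ifi208 (0.91), Npnt most like Phactr1 (r = 0.88), Prkce (0.84) and Colq (0.83) and Pdgfrb most like Lamb2 (r = 0.88), Tln1 (0.87) and Myo10 (0.86). For Tcf21 the nearest were G0s2 (r = 0.74), Ramp2 (0.73) and Dhrs7 (0.73) and for Pi16 Fbln1 (r = 0.65), P3h3 (0.56) and Frem2 (0.52), both weaker.

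In skin Cd34 was most like Nova1 (r = 0.96), Dcn (0.95) and Olfml1 (0.95), with decorin (Dcn) a proteoglycan of dermal fibroblasts. Pi16 was most like Opcml (r = 0.94), Clec3b (0.92) and Scara5 (0.91), and Clec3b most like Pard3b (r = 0.94), Adgrd1 (0.94) and Scara3 (0.92). Pdgfra was most like Cped1 (r = 0.87), Lama2 (0.87) and Fgf7 (0.86), Pdgfrb most like Nav1 (r = 0.91), Creb3l2 (0.89) and Ttc28 (0.89) and Dpp4 most like C1qtnf7 (r = 0.90), Tmeff2 (0.89) and Foxp2 (0.89). Gsn was most like Arhgap44 (r = 0.93), Rab11fip4 (0.93) and Cadm3 (0.92) and Npnt most like Frem2 (r = 0.77), Bach2 (0.76) and Bcl2 (0.74). Skin Inmt was most like Col4a3 (r = 0.71), Aox3 (0.69) and Scgb1a1 (0.69), and Scgb1a1 is a gene of airway club cells. Among the members themselves all 36 pairs in skin had a positive r (median 0.55, and 0.28 within groups). Of 45 pairs in lung 19 were negative (median 0.17, and 0.14 within groups), from -0.77 for Cd34 with Inmt to 0.85 for Pdgfra with Gsn.

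PBS tissue was not constant between days. Over the 5 PBS groups Cd34, Inmt, Dpp4, Pi16 and Gsn differed in skin, 5 of 9 genes against 55.2% of all genes, and Pdgfrb, Dpp4 and Npnt in lung, 3 of 10 against 21.7%. In skin the PBS median of Gsn was 3017, 3395, 2389, 3041 and 2469 CPM on days 7, 14, 21, 28 and 42. Hair shaft genes in PBS skin summed to 3.54 to 1031 CPM on day 14 and 3.86 to 30463 CPM on day 42. With hair and muscle scores as terms 1 of 9 genes differed between PBS days, against 17.0% of all genes. Each bleomycin group was compared with PBS of its own day.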

How the data were processed

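RNA of 93 lung and 93 skin libraries was measured by total RNA sequencing with a stranded kit that depletes ribosomal RNA, as the labels state. The authors deposited expected counts per gene and a table of log2 CPM for 16160 expressed protein-coding genes, whose title says it was corrected for plate. The submitters' processing notes name RSEM, edgeR and GRCm38 without saying which step used each, and the aligner, versions and method of plate correction are not given in the sources used here. Expected counts (83.7% whole) were rounded. Groups came from the titles.

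Genes passing filterByExpr were tested in R 4.3.3 with edgeR 4.0.16 (quasi-likelihood F test, TMM scaling). Each tissue had a fit of its 12 groups with a plate term, 186 libraries with plate within tissue entered for skin minus lung, and p-values were adjusted over all genes by Benjamini-Hochberg. Each SE is approximate, obtained by dividing the size of the log2 fold change by the root of its F statistic. CPM are TMM-scaled. The fit was tested on simulated data with the same spread setting for every gene. These data held no plate differences and no libraries that stood apart, so they do not show how the fit handles either.

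All 10 genes are covered in each comparison where they were tested, and calls are given for Pdgfa, Pdgfb, Pdgfc and Pdgfd in each comparison between groups, days or tissues. Tcf21, which passed the filter through lung alone, was left out of skin minus lung. From other lists at most 4 genes with the smallest p are named, and likeness names the 3 highest r among genes with mean log2 CPM of at least 1, with a prior count of 2; 1 gene of the likeness lists is not reported here. Genes and lists were chosen with earlier results of these data known. Alternatives were RLE size factors, no filter, no plate term, replicate block, the compared groups alone, DESeq2 1.42.0 and limma 3.58.1 on the log2 table. Added after the data were seen were fits without libraries that stood apart and, in skin, with hair and muscle scores. Promoter windows come from RefSeq, GRCm38.p6.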

Additional observations from a re-analysis of the deposited data

Results flagged for a closer look

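Single libraries lay far from the others of their group in 17 of 228 combinations of gene and group, where chance gives about 1 in 20, and 6 of the 17 were in libraries that stood apart. In lung, PBS day 28 replicate 2 was low for Pdgfra (303 CPM) and high for Clec3b (41.5 CPM). Bleomycin day 42 replicate 1, the library with liver genes, was low for Pdgfrb (156 CPM) and Cd34 (145 CPM), and PBS day 42 replicate 2 was high for both (255 and 233 CPM). Cd34 was low in bleomycin with vehicle day 21 replicate 5 (253 CPM) and Gsn in SB525334 day 28 replicate 2 (917 CPM).

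In skin, bleomycin day 14 replicate 1 was low for Pdgfra (35.0 CPM) and Pdgfrb (34.1 CPM). PBS day 14 replicate 4 was low for Pdgfra (123 CPM) and Inmt (0.424 CPM), PBS day 28 replicate 2 for Pdgfra (145 CPM) and bleomycin with vehicle day 28 replicate 7 for Pdgfrb (89.5 CPM). High values were those of Clec3b in bleomycin day 42 replicate 5 (61.7 CPM), Inmt in bleomycin with vehicle day 21 replicate 3 (43.1 CPM), the library with alveolar genes, and Dpp4 in bleomycin day 7 replicate 4 (103 CPM).

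The bleomycin effect differed between days 42 and 14 in tests of the difference. In skin it was higher on day 42 by 4.60 for Clec3b, 3.60 for Pi16, 2.22 for Cd34, 1.72 for Pdgfra, 1.38 for Gsn, 1.28 for Pdgfrb and 1.10 for Dpp4, and in lung by 0.57 for Dpp4. Between tissues, skin minus lung, it differed on day 7 by -2.66 for Clec3b, -2.13 for Pi16, -1.65 for Cd34, -1.01 for Pdgfra and -0.86 for Dpp4. On day 14 the differences were -4.56 for Clec3b, -4.02 for Pi16, -3.01 for Cd34, -1.46 for Pdgfra, -0.92 for Gsn, -0.80 for Dpp4 and -0.72 for Pdgfrb. On day 21 they were 3.79 for Inmt (-0.19 without the libraries that stood apart), -1.83 for Pi16, -1.30 for Clec3b, -1.05 for Cd34 and -0.64 for Dpp4, and on day 28 they were 0.57 for Pdgfra and -0.53 for Npnt. The SB525334 effect on day 21 differed by -2.78 for Inmt (1.24 without those libraries) and -0.64 for Pdgfra.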

How the results depend on the processing

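Of 1123 log2 fold changes of the 10 genes per day under alternatives, 1069 kept their side of the threshold, 24 lost the call, 29 gained one and 1 reversed, and 16 uncalled values changed sign. Without libraries that stood apart, chosen after seeing the data, Inmt in skin on day 21 was -1.90, its skin-minus-lung difference -0.19, and that for SB525334 on day 21 was 1.24. Genes called went from 8 to 5 in lung on day 28, 1 to 2 with SB525334 in lung on day 21, 1 to 3 in lung for day 42 minus 14, 3 to 6 over 5 days in lung and 2 to 0 in skin minus lung on day 28, where RLE size factors, no filter and no plate term each gave 1. For SB525334 in skin minus lung on day 21 no filter, no plate term and the replicate block each gave 1 in place of 2. The compared groups alone gave 0 in lung on day 28 (5 of 10 had an unadjusted p below 0.05 in edgeR), 4 and 0 with SB525334 in lung on days 21 and 28 (on day 28 1 of 10 had an unadjusted p below 0.05), and 5 in skin on day 28. DESeq2 gave 2 for SB525334 in lung on day 21, and limma on the deposited log2 values gave 2 on day 28. Hair and muscle scores gave 3 in skin on day 42, 4 with SB525334 on day 28 and 1 over PBS days. In plate 2 alone, on lung day 28, Dpp4 was 0.094, Npnt 0.11 and Gsn 0.013, and Inmt in skin on day 21 was -1.28.

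Over all genes, counts moved from 5955 to 3538 in lung on day 28 without those libraries and to 120 with the 2 groups alone, from 5516 to 8719 on day 21 with the 2 groups alone, from 63 to 353, 891 and 127 with SB525334 on day 21 (without those libraries, 2 groups alone, DESeq2), from 1310 to 866, 135 and 0 on day 28 (no plate term, without those libraries, 2 groups alone), from 2399 to 4517, 4152 to 6989 and 3403 to 5831 for day 42 minus 14, over 5 days and over PBS days in lung without those libraries. In skin they moved from 6518 to 3541 on day 21 with the 2 groups alone, and with hair and muscle scores from 1872 to 3665 for SB525334 on day 21 and from 8742 to 2688 over PBS days. On day 42 in skin they moved from 1620 to 1035 without plate, 387 with the 2 groups alone and 3598 with scores. For skin minus lung they moved from 4315 to 2713 on day 28 and from 2266 to 596 with SB525334 on day 28 without those libraries, and from 317 to 200 on day 21 without plate. The causes were not tested.

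Same-numbered libraries of the 2 groups compared, within a tissue, were checked for shared deviations from their group. Of 102 pairs 24 had deviations correlated over 0.1 (median -0.03, from -0.54 to 0.58), and in 0 of 14 comparisons were all pairs over 0.1. Lung and skin libraries of the same number were not compared in this way. With the replicate number as a block, Npnt in lung on day 28 (adjusted p = 0.0561) and Inmt in skin on day 21 (adjusted p = 0.134) were no longer called, nor was Inmt in skin minus lung for SB525334 on day 21 (adjusted p = 0.0865), and the count over all genes for SB525334 in lung on day 21 went from 63 to 41. Depth limits Inmt and Tcf21 in skin, which were near 0 CPM.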

Other observations

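Genes of other cell types changed beside the fibroblast genes, and are given as values. Of 12 macrophage genes 11 rose in lung and 10 in skin on day 14, with median changes of 1.90 and 0.74. T and B cell genes fell in lung on day 21, 8 of 9 with a median of -1.11, and rose in skin, 5 of 7 with a median of 1.55. Mesothelial genes fell in lung on day 14, 6 of 8, while 2 rose. On day 42 8 of 14 endothelial genes were higher in bleomycin skin and 0 lower, and 0 were higher and 5 lower in lung. The day given differs from list to list. Of all genes tested, 21.0% rose and 25.4% fell in lung on day 14, and 31.5% rose in skin. On day 21 19.4% fell in lung and 20.2% rose in skin. On day 42 5.28% rose in skin and 6.77% fell in lung.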
